A study of Homo sapiens with 2 samples.

Results

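The activators of plasminogen and a group of serpins, 9 genes in all, were followed in RNA from MCF10a-Snail-ER cells: PLAU, PLAT, PLAUR and ST14 on the protease side, and SERPINE2, SERPINB1, SERPINB2, SERPINB5 and SERPINH1 from the serpin family. They were chosen by name, with earlier results of these data known. Their rows in the count tables are those whose Ensembl identifier carries one of these symbols in GENCODE release 44. All 9 were found among 58735 genes. MCF10a is a non-tumorigenic human mammary epithelial line. The derivative stably carries the epithelial repressor Snail fused to the estrogen receptor, which tamoxifen activates, and all cells had been in 100 nM tamoxifen for 1 day to begin an epithelial-to-mesenchymal transition. Their medium held horse serum, EGF, hydrocortisone, cholera toxin and insulin. Polyadenylated RNA described as matched was read in 1 Nanopore direct RNA library (MinION) and in 1 Illumina TruSeq stranded mRNA library. No untreated library was analysed here, so no value below is a response to Snail. The comparison is between 2 libraries without replicates, and each interval and test covers counting error alone.

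Urokinase (PLAU) and tissue plasminogen activator (PLAT) are serine proteases that cut plasminogen into plasmin, a broad protease that degrades fibrin and matrix and activates other proteases. Urokinase acts at the cell surface when bound to its receptor (PLAUR), and matriptase (ST14), a membrane-anchored protease of epithelia, can activate the urokinase precursor. Serpins of the inhibitory kind trap a protease by offering a bait loop that is cut and locks the enzyme. Some members of the family, among them maspin (SERPINB5) and the collagen chaperone SERPINH1, are not protease inhibitors of this kind.

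The Nanopore table summed to 403235 counts and the Illumina table to 191741714, which is 476 times deeper. Levels are given as counts per 1000000 (CPM). A single count was worth 2.48 CPM in the Nanopore library and 0.00522 CPM in the Illumina library, and 3 counts, taken as the smallest level a depth can show, were 7.44 and 0.0156 CPM. The 9 genes together held 202 Nanopore counts (0.0501% of the library) and 200045 Illumina counts (0.104%). Each had at least 1 count in both libraries, and 8 had a mean of at least 5 CPM and entered the test; SERPINB2 did not. Markers of mammary epithelium, most of them basal, had counts for 8 of 8 genes in each library. The highest was KRT5, at 1686 CPM by Nanopore and 1447 by Illumina, and the lowest were TP63 (12.4 and 33.2 CPM) and EPCAM (7.44 and 4.02 CPM). Of 6 leukocyte markers 1 had a Nanopore count, CD68 at 32.2 CPM (45.1 by Illumina), and the leukocyte marker PTPRC had 0 Nanopore and 2 Illumina counts. Of 6 fibroblast markers, DCN was at 24.8 and 26.5 CPM, while PDGFRA and PDGFRB had no Nanopore count. Endothelial markers summed to 2.48 and 6.61 CPM. In the deeper Illumina library, 6 of 6 fibroblast, 5 of 6 leukocyte and 4 of 4 endothelial markers had at least 1 count. COL1A1 (4.93 CPM) and PECAM1 (5.08 CPM) were above EPCAM there.

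SERPINH1 and SERPINB5 led the set, and SERPINB2 was nearly absent. SERPINH1 had 68 Nanopore counts and SERPINB5 had 63, and together they made up 64.9% of the set's Nanopore counts and 70.6% of its Illumina counts. SERPINE2 followed with 33 counts, then PLAU with 15 and SERPINB1 with 13. PLAT (4), PLAUR (3), ST14 (2) and SERPINB2 (1) were at the edge of what this Nanopore depth can show.

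**Figure D1:**
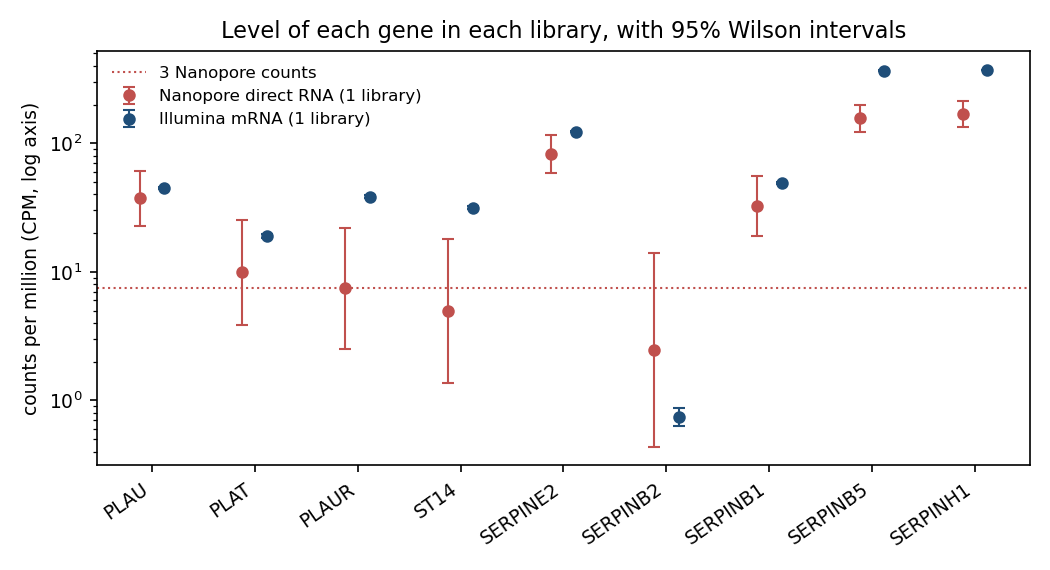
CPM on a log axis for each gene in the Nanopore library (red) and the Illumina library (blue), with 95% Wilson intervals and the level of 3 Nanopore counts as a dotted line. SERPINB5 and SERPINH1 are highest in both libraries (156 to 371 CPM), SERPINB2 is lowest in both (2.48 and 0.741 CPM), and the Nanopore intervals widen as counts fall.

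PLAU (ENSG00000122861, chromosome 10, 73909177 to 73917496, plus strand, hg38) had 15 counts in the Nanopore library, which is 37.2 CPM (95% Wilson interval 22.5 to 61.4), and 8605 in the Illumina library, which is 44.9 CPM (43.9 to 45.8). The log2 ratio of Nanopore over Illumina, each as CPM plus 1, was −0.26, with an exact conditional interval of −1.07 to 0.44 and an adjusted p of 0.684 (exact binomial test, Benjamini-Hochberg over 12414 genes). The other activator, PLAT (ENSG00000104368, chromosome 8, 42174718 to 42207709, minus strand), had 4 Nanopore counts, a level of 9.92 CPM (3.86 to 25.5), and 3662 Illumina counts, a level of 19.1 CPM (18.5 to 19.7). Its log2 ratio was −0.88 (−2.44 to 0.39), with an exact binomial adjusted p of 0.346. Neither activator was separated between the libraries beyond counting error, and the intervals leave room for a 2.16-fold (PLAU) or 7.07-fold (PLAT) higher Illumina level. Of the pair, PLAU was the more abundant in both libraries. It had 3.75 times as many Nanopore counts as PLAT (exact 95% interval 1.20 to 15.5), and its Illumina count per base was 3.07 times that of PLAT by the length of the MANE Select transcript (the annotation's single reference transcript of a gene) and 6.19 times by the union of annotated exons.

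The counts of PLAU carry a limit of position. A long non-coding RNA gene, C10orf55 (ENSG00000222047, 73909969 to 73922777), runs over most of PLAU on the opposite strand. It had 15 Nanopore counts, the same number as PLAU, and 405 Illumina counts against 8605. The 2 genes share 20.7% of the 50-base words in the annotated transcripts of PLAU (614 of 2962 words, either strand). Whether strand was used in counting is not given in the sources used here, so reads of PLAU and of C10orf55 cannot be told apart in the Nanopore table.

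The receptor PLAUR (ENSG00000011422, chromosome 19, 43646095 to 43670547, minus strand) was far lower by Nanopore than by Illumina. It had 3 Nanopore counts, 7.44 CPM (2.53 to 21.9), where its 7386 Illumina counts (38.5 CPM, 37.7 to 39.4) scaled to the Nanopore total give 15.5. The Illumina level was 5.18-fold higher, with an exact interval of 1.77 to 25.1, and the log2 ratio was −2.23 (−3.96 to −0.80; exact binomial adjusted p = 0.000965). Matriptase, ST14 (ENSG00000149418, chromosome 11, 130159782 to 130210362, plus strand), had 2 Nanopore counts, 4.96 CPM (1.36 to 18.1), against 12.7 scaled from 6025 Illumina counts (31.4 CPM, 30.6 to 32.2). Its log2 ratio was −2.44 (−4.34 to −0.78; exact binomial adjusted p = 0.00195), which is a 6.34-fold higher Illumina level with an interval of 1.75 to 52.3. The 2 counts of ST14 lie under the level of 3 counts, so the size of this difference is poorly determined, and the test rests on 2 counts where 12.7 were scaled from Illumina. These were the 2 of 8 tested members called higher by Illumina (adjusted p under 0.05 and at least 4-fold), a rule that called 7.31% of all tested genes. No member was called higher by Nanopore, a direction that held 12.9% of tested genes. Of the 2810 tested genes that overlap no other gene, as 5 of the members do not, 86 were called higher by Nanopore.

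The calls of both genes changed with the gene length used, that of PLAUR under 1 of 3 lengths and that of ST14 under 2. Illumina counts grow with transcript length, while a direct RNA read starts at the 3′ end of 1 molecule, so Illumina counts were also divided by length and scaled to 1000000 (TPM). With MANE lengths, a scale chosen after the data were seen, PLAUR (1368 bases) was at 43.7 TPM and its log2 ratio stayed at −2.41 (exact binomial adjusted p = 0.000196), beside 3.26% of genes called in that direction on this scale. ST14, with a MANE transcript of 3305 bases, moved to −1.40 (exact binomial adjusted p = 0.225). It was −1.81 (exact binomial adjusted p = 0.224) when the Illumina counts were thinned at random to the Nanopore total. With union exonic length the ratio of PLAUR was −1.53 (exact binomial adjusted p = 0.0659) and that of ST14 −1.86 (exact binomial adjusted p = 0.0473), neither past 4-fold, and 4.84% of genes were called in that direction. With the mean length of annotated transcripts both calls remained, PLAUR at −2.71 (exact binomial adjusted p = 7.17e-06) and ST14 at −2.07 (exact binomial adjusted p = 0.0199), beside 3.95% of genes. Within the libraries, PLAU outnumbered its receptor by Nanopore, 15 counts to 3, a ratio of 5.00 with an exact interval of 1.41 to 26.9. By Illumina per base that ratio was 1.76 with union exonic length, 0.780 with mean transcript length and 0.680 with MANE length, the last 2 below the Nanopore interval. On the counts as given, the order of ligand and receptor differed between the libraries on those 2 scales and not with union length. The Nanopore ratio rests on 3 PLAUR counts and on 15 PLAU counts that cannot be told apart from those of C10orf55, a limit that its interval does not cover.

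The annotated start of PLAUR, the member with the largest gap left after MANE length scaling, is shown to describe its sequence. Both libraries read RNA described as matched, so the window is not offered as a reason for that gap. A link between the sequence and the gap was not tested. The window spans chr19:43670120-43670419 (minus strand), from 250 bases before to 50 after the RefSeq start on GRCh38.p14. Capitals mark TGANTCA, the pattern searched for AP-1, a dimeric factor of growth factor signalling.
PLAUR: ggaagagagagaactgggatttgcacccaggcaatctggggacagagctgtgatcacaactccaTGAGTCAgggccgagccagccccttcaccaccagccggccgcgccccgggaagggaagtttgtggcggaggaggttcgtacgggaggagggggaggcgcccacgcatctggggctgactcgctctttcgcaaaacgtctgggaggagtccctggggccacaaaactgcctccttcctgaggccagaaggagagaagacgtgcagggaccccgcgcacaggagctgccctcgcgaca

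The inhibitor SERPINE2 (protease nexin-1, which blocks urokinase, tissue plasminogen activator and thrombin; ENSG00000135919, chromosome 2, 223975045 to 224039318, minus strand) was the most abundant plasminogen activator inhibitor among the 9 genes. Its 33 Nanopore counts equal 81.8 CPM (58.3 to 115) and its 23549 Illumina counts equal 123 CPM (121 to 124). The log2 ratio was −0.58 (−1.11 to −0.09; exact binomial adjusted p = 0.0368), short of 4-fold, and the adjusted p was above 0.05 under TMM scaling (−0.49; exact binomial adjusted p = 0.0925). Its direction depended on the length used: the annotated exons of SERPINE2 sum to 8957 bases but its MANE transcript is 2226 bases long, and the log2 ratio was 1.12 with the first (exact binomial adjusted p = 0.000306) and −0.07 with the second (exact binomial adjusted p = 0.974). SERPINE2 had 2.20 Nanopore counts per PLAU count (exact interval 1.16 to 4.36), against 2.88 by Illumina per MANE base and 0.901 per union base.

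SERPINB2 (plasminogen activator inhibitor type 2; ENSG00000197632, chromosome 18, 63871692 to 63903888, plus strand) was the rarest member in both libraries. It had 1 Nanopore count, 2.48 CPM (0.438 to 14.1), and 142 Illumina counts, 0.741 CPM (0.628 to 0.873). A difference between the libraries was not detectable at this depth (log2 ratio 1.00, exact interval −0.71 to 3.11; not tested). A protein-coding gene on the same strand, ENSG00000289724 (63897174 to 63917490), overlaps SERPINB2 and shares 18.3% of its 50-base transcript words (500 of 2735). That gene was not analysed here, and reads from the shared part cannot be assigned to one of the pair. SERPINB1 (an inhibitor of neutrophil elastase and related granule proteases; ENSG00000021355, chromosome 6, 2832332 to 2841959, minus strand) had 13 Nanopore counts, or 32.2 CPM (18.8 to 55.2), and 9359 Illumina counts, or 48.8 CPM (47.8 to 49.8). Its log2 ratio was −0.58 (−1.46 to 0.17; exact binomial adjusted p = 0.241), and 0.07 by MANE length.

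Maspin, SERPINB5 (ENSG00000206075, chromosome 18, 63476958 to 63505085, plus strand), is a serpin of normal mammary epithelium and other basal epithelia, known as a suppressor of invasion in breast cancer models. Its level was 156 CPM in the Nanopore library (63 counts; 122 to 200) and 366 CPM in the Illumina library (70148 counts; 363 to 369). The log2 ratio was −1.22 (−1.60 to −0.87; exact binomial adjusted p = 6.81e-14), and it kept its sign and its adjusted p under the threshold in all 10 alternative settings run, from −1.51 to −0.49. Among these, the pseudocounts of 0.1 and 5 CPM leave the sign and the adjusted p unchanged by construction. By MANE length the log2 ratio was −0.49 (exact binomial adjusted p = 0.0141). SERPINH1 (HSP47, a chaperone of procollagen in the endoplasmic reticulum; ENSG00000149257, chromosome 11, 75562056 to 75572783, plus strand) had 68 Nanopore counts (169 CPM, 133 to 214) and 71169 Illumina counts (371 CPM, 369 to 374). Its log2 ratio was −1.13 (−1.50 to −0.79; exact binomial adjusted p = 1.12e-12). It was −0.73 by MANE length (2058 bases; exact binomial adjusted p = 3.19e-05) and 0.07 by union exonic length (6281 bases; exact binomial adjusted p = 0.829). SERPINB5 and SERPINH1 had similar counts in both libraries, with 1.08 SERPINH1 counts per SERPINB5 count by Nanopore (exact interval 0.755 to 1.55) and 1.01 by Illumina before length was considered. Per base the Illumina ratio was 1.28 with MANE length and 0.604 with union length, the second below the Nanopore interval.

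**Figure D2:**
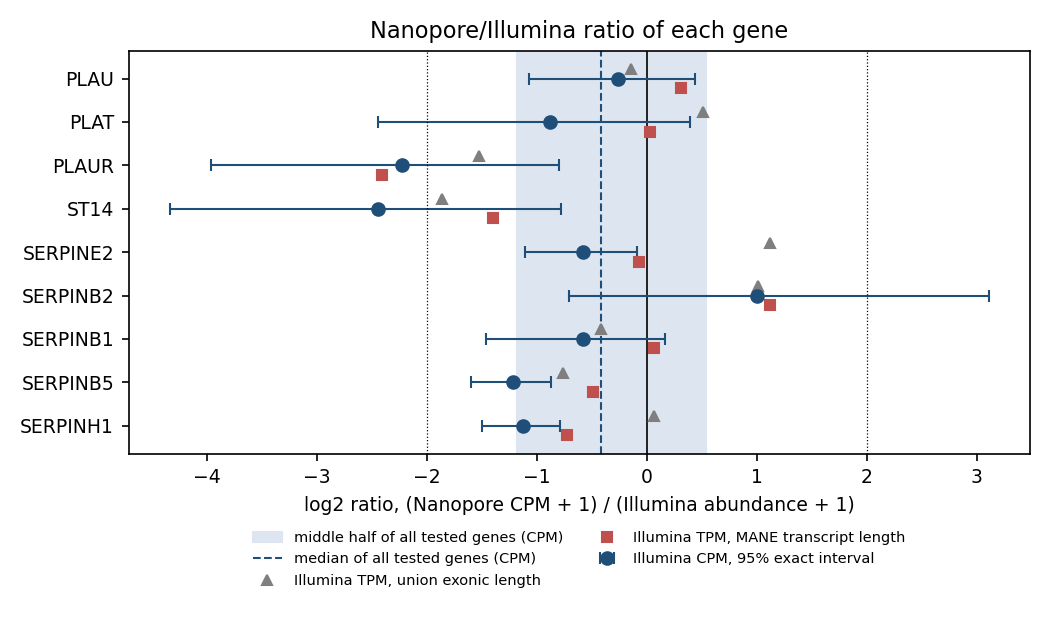
Log2 ratio of Nanopore over Illumina for each gene, with Illumina as CPM (circles, 95% exact intervals), as TPM by union exonic length (triangles) and as TPM by MANE transcript length (squares); the band and dashed line are the interquartile range (−1.18 to 0.54) and median (−0.42) of all 12414 tested genes on the CPM scale, and dotted lines mark 4-fold. PLAUR and ST14 lie beyond the 4-fold line on the CPM scale, and with MANE length PLAUR alone does.

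All 8 tested members had a log2 ratio below 0 on the CPM scale, with a median of −1.01 beside −0.42 for all tested genes. The adjusted p alone was under 0.05 for 5 of 8 (PLAUR, ST14, SERPINE2, SERPINB5 and SERPINH1), each higher by Illumina, as it was for 27.2% of all tested genes. With MANE length the median of the 8 was −0.28 against 0.48 for all genes, and with union exonic length −0.28 against 0.40. On the MANE scale PLAU (0.31), PLAT (0.03), SERPINB1 (0.07) and SERPINE2 (−0.07) lay within 0.31 of 0, with exact binomial adjusted p values from 0.607 to 1. None of the 9 MANE transcripts aligned to an alternate contig of its own chromosome in the hg38 sequence used. Apart from PLAU and SERPINB2, whose shared words are given above, overlap in sequence was small: no transcript word of PLAUR or ST14 occurred in another gene, and for PLAT, SERPINE2, SERPINB1, SERPINB5 and SERPINH1 the shared words were 0.252 to 1.56%. Of genes inside a member's body, RN7SL368P in PLAUR had 0 Nanopore and 7 Illumina counts, and ATP5MC1P6 in SERPINB5 had 0 and 15.

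The order of the members was compared within each library. By Nanopore it ran SERPINH1, SERPINB5, SERPINE2, PLAU, SERPINB1, PLAT, PLAUR, ST14, SERPINB2. SERPINH1 and SERPINB5 did not differ beyond counting error, nor did PLAU and SERPINB1, nor any neighbours from PLAT downward. SERPINB5 exceeded SERPINE2 (1.91-fold, exact interval 1.23 to 3.004), SERPINE2 exceeded PLAU, and SERPINB1 exceeded PLAT by a margin whose interval barely cleared 1 (3.25-fold, 1.00 to 13.7). By Illumina TPM with union exonic length the order was SERPINB5 (265), SERPINH1 (160.0), SERPINB1 (43.4), PLAU (41.2), SERPINE2 (37.1), PLAUR (23.4), ST14 (20.7), PLAT (6.66) and SERPINB2 (0.732), with all 8 neighbouring steps beyond counting error. With MANE length SERPINH1 (280 TPM) passed SERPINB5 (220 TPM), SERPINE2 (85.7 TPM) and PLAUR (43.7 TPM) came next, ahead of SERPINB1 and PLAU, and SERPINB1 (30.6 TPM) and PLAU (29.8 TPM) no longer differed (1.03-fold, exact interval 0.999 to 1.06). SERPINB2 was last, and PLAT next to last, under both lengths.

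A set of 10 clade B serpin genes lies in a cluster of 543 kb on chromosome 18, with SERPINB5 at one end and SERPINB2 395 kb from it. SERPINB5 held 82.9% of the cluster's 76 Nanopore counts and 89.7% of its 78208 Illumina counts. SERPINB8, at the other end, followed with 9 and 7117 counts (22.3 and 37.1 CPM). Between them, SERPINB12 and SERPINB13 were listed at 0 in both libraries, SERPINB4 and SERPINB7 had Illumina counts only (56 and 273), and SERPINB3, SERPINB11, SERPINB2 and SERPINB10 had 1 Nanopore count each. SERPINB3 lies within the body of SERPINB11 on the opposite strand, and ENSG00000289724 overlaps SERPINB10 as well as SERPINB2. These single counts may therefore not belong to separate genes. SERPINB5 exceeded SERPINB2 63.0-fold by Nanopore counts (exact interval 10.9 to 2527) and 364-fold by Illumina per MANE base. In the chromosome 6 group of 3, SERPINB6 was highest (34 and 27848 counts), SERPINB1 second, and SERPINB9 was listed at 0 in both, where 3 counts would be 7.44 and 0.0156 CPM.

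**Figure D3:**
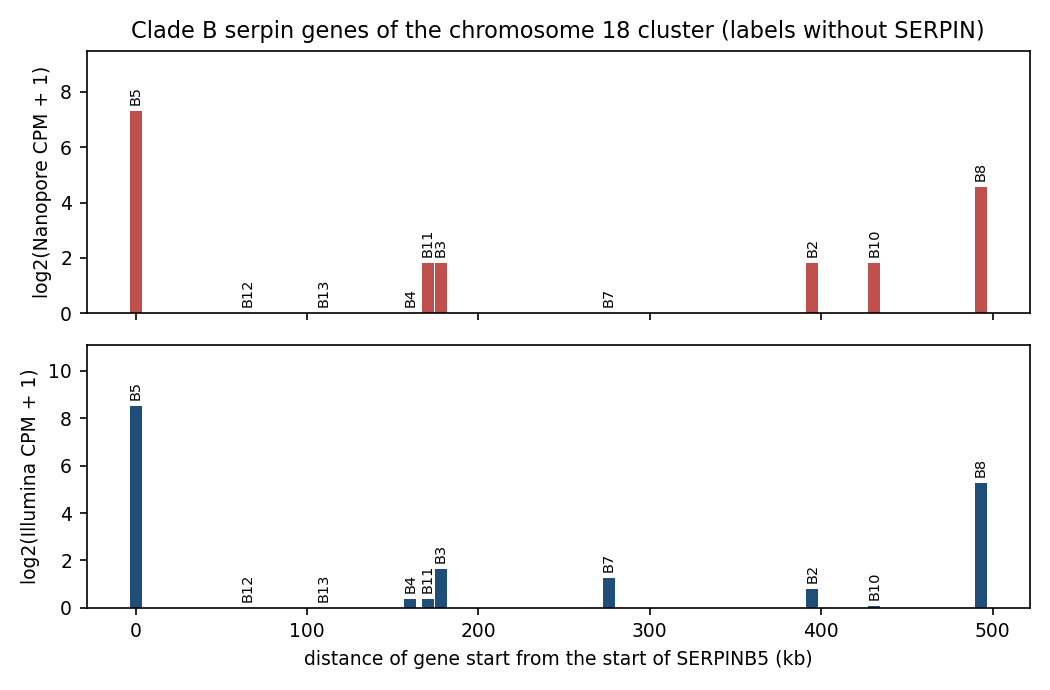
Level of each clade B serpin gene of the chromosome 18 cluster as log2(CPM + 1), by Nanopore (upper) and Illumina (lower), placed by the distance of its start from that of SERPINB5 in kb. SERPINB5 stands highest and SERPINB8 second in both libraries, and a Nanopore bar of 1 count has the height of 2.48 CPM.

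The promoter windows of SERPINB5 and SERPINB2, the 2 of the 9 genes that lie in this cluster, are given to set their sequences beside those levels. Both are from RefSeq on GRCh38.p14, 250 bases before to 50 after the annotated start, on the plus strand: chr18:63476708-63477007 for SERPINB5 and chr18:63887455-63887754 for SERPINB2. Capitals mark matches on either strand to CAGGTG (the E-box that Snail binds), TGANTCA and TATAAA.
SERPINB5: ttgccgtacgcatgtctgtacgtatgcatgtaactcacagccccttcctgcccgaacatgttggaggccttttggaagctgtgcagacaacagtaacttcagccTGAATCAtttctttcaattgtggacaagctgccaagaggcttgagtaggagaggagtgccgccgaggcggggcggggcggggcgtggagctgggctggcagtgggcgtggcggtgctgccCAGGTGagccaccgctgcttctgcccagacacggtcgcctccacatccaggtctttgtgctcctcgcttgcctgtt
SERPINB2: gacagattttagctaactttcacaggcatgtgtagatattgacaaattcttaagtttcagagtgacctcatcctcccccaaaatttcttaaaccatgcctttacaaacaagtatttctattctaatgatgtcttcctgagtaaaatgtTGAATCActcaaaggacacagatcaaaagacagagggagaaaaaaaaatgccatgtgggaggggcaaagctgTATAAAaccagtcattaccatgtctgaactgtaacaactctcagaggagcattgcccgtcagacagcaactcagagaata

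The SERPINB5 window is 59.7% G and C and the SERPINB2 window 39.0%. SERPINB5 has CAGGTG at −26 and TGAATCA at −146, while SERPINB2 has TATAAA at −30 and TGAATCA at −102, positions being those of the first base of the match from the annotated start. PLAUR has TGAGTCA at −186. The search covered 10 windows from 7 of the 9 members. ST14 had no window in the promoter table used, and windows on chromosome 8, where PLAT lies, were left out of the search. CAGGTG was in 3 of the 10 (SERPINB5 and 1 window each of PLAU and SERPINH1), against 20.6% of 35116 windows of 300 bases. TGANTCA was in 3 of 10 against 7.71%, and TATAAA in 1 of 10 against 11.5%. These matches describe letters only, and no overlap between matches occurred in the windows printed.

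Among the 33 serpin genes compared, which are not the whole family, 15 had Nanopore counts, 23 had Illumina counts and 10 were at 0 in both. SERPINB1, SERPINB2, SERPINB5, SERPINE2 and SERPINH1 held 178 of the 274 counts of these genes by Nanopore (65.0%) and 72.7% of their TPM by MANE length. SERPINH1 and SERPINB5 ranked highest, in that order, by both measures, but their Nanopore counts did not differ beyond counting error. With union exonic length or mean transcript length SERPINB5 was ahead of SERPINH1 by Illumina. SERPINB6, an intracellular inhibitor, was at 84.3 and 145 CPM. Its Illumina level was 172 TPM with MANE length and 29.8 TPM with union exonic length.

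**Figure D4:**
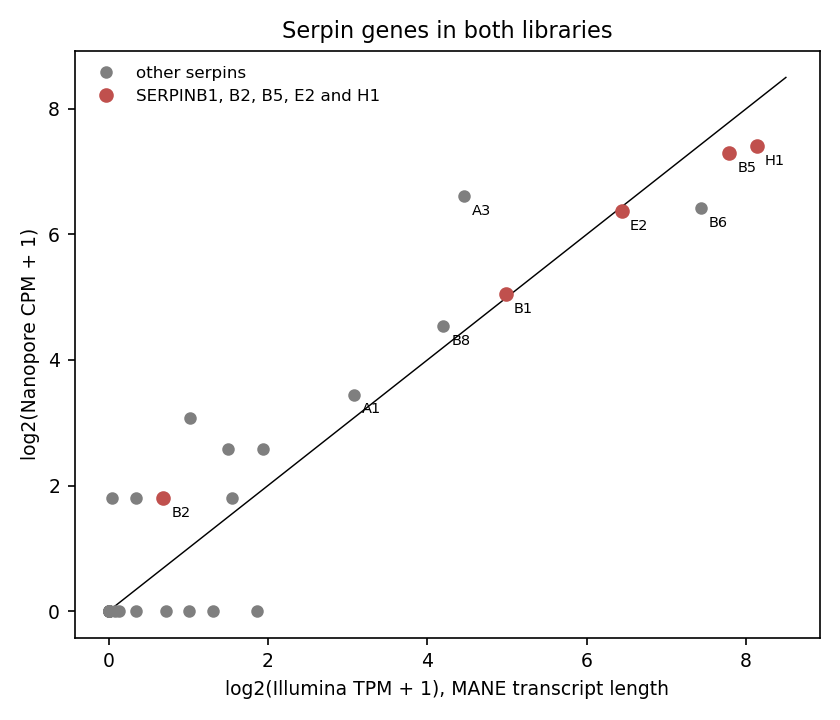
Log2(Nanopore CPM + 1) against log2(Illumina TPM + 1, MANE transcript length) for the 33 serpin genes compared, with the 5 serpins of the set in red and the line of equal values; names are given without SERPIN. SERPINE2 and SERPINB1 lie on the line, SERPINH1, SERPINB5 and SERPINB6 lie below it, and SERPINA3 lies above it at 96.7 CPM and 20.9 TPM. With union exonic length SERPINE2 (81.8 CPM and 37.1 TPM) and SERPINB6 (84.3 CPM and 29.8 TPM) would lie above the line.

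The other genes of the plasminogen system compared here numbered 14, of which 9 had a Nanopore count, 13 an Illumina count and 8 were tested. Of these, 1 was called higher by Nanopore (12.9% of all tested genes) and none higher by Illumina (7.31%) at 4-fold. By adjusted p alone 2 were higher by Nanopore (20.2% of all tested genes) and 2 higher by Illumina (27.2%). Across the 8, the median log2 ratio came to −0.59. Plasminogen itself (PLG), mainly a product of liver, was listed at 0 in both libraries. The highest RNA levels of this list were those of genes for proteins that can bind plasminogen. ENO1 was at 1716 and 3521 CPM, ANXA2 at 1607 and 3038, and S100A10, which joins annexin A2 in a complex, at 940 and 709. PLGRKT, the gene of a plasminogen receptor, was at 19.8 and 23.9 CPM. RNA levels do not show how much protein was at the cell surface. S100A10 had 0.585 counts per ANXA2 count by Nanopore (exact interval 0.514 to 0.665), an interval that holds the 0.540 of Illumina per MANE base but not the 2.67 per union base.

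Of the 17 genes listed around matriptase, 6 had Nanopore counts and 6 were tested. None was called at 4-fold, beside 12.9% of all tested genes called higher by Nanopore and 7.31% by Illumina. On adjusted p alone 2 were higher by Illumina, beside 27.2% of all tested genes. The median log2 ratio was −0.57. The Kunitz-type inhibitors of matriptase, SPINT1 and SPINT2, had 12 and 44 Nanopore counts to 2 for ST14, and their ratios to ST14 had exact intervals of 1.34 to 55.2 and 5.74 to 187. By Illumina these ratios were 1.96 and 8.13 per MANE base and 2.05 and 3.36 per union base, and the last of these, for SPINT2, lies below the Nanopore interval. SPINT2 was at 109 and 131 CPM, MET, the receptor of the matriptase substrate HGF, at 44.6 and 91.4 CPM, and FURIN, a proprotein convertase, at 24.8 and 74.6 CPM. These pairs, like the others given above, were chosen after the values were seen.

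By the distance between both log2(CPM + 1) values, over 2 libraries and 15601 protein-coding genes, the gene nearest to SERPINH1 was AHCY (68 and 68010 counts; distance 0.0653). The nearest to SERPINB5 was SERPINH1 (0.111), and the nearest to SERPINE2 was KYNU (33 and 23826 counts; 0.0167).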

How the data were processed

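The authors deposited whole-number counts per Ensembl gene, without normalization, 1 table per library. Per the submitters' processing notes, reads were placed on hg38, and the tools named are minimap2 2.11-r797, HISAT2 2.1.0 and featureCounts. The annotation release and the handling of strand and of reads over several genes are not given in the sources used here. Names, positions and lengths came from GENCODE release 44, and 528 of 58735 identifiers were not in it.

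Counts were divided by library totals (CPM) or, for Illumina, also by gene length (TPM). Where the mean of both CPM values reached 5, an exact binomial test conditional on the gene's total count (two-sided) was run in scipy 1.17.1, with Benjamini-Hochberg adjustment over all such genes. It compares these 2 libraries and not the platforms. The test was also run on simulated counts that held counting error alone, so that run cannot show how it behaves with any other spread between libraries. With 1 library per platform there is no replicate check, and no edgeR model was fitted; edgeR 4.0.16 gave TMM factors only. Intervals are 95% Wilson for levels and exact (Clopper-Pearson) for ratios. Those of a log2 ratio were carried to the log2(CPM + 1) scale at the measured Illumina CPM. Reads of amplified libraries are not independent molecules. Overlap means a shared base of gene bodies on either strand. Copies on alternate contigs were sought with minimap2 2.31. Promoter sequences are from RefSeq.

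The members and lists were chosen with earlier results of these data known. A gene of the lists is not reported here, and list counts leave it out. Outside the members, genes of the plasminogen, serpin and matriptase lists are named if called at 4-fold or among the 3 most abundant of their list, and other genes if they overlap a member and have a count, or if nearest to one of the 3 members with most Nanopore counts. Others named were chosen after their values were seen.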

Additional observations from a re-analysis of the deposited data

How the results depend on the processing

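The number of members called higher by Illumina was 2 with library totals. It was 0 with Illumina TPM by union exonic length and with a pseudocount of 5 CPM, and 1 with TPM by MANE length (chosen after the data were seen), with a minimum mean of 20 CPM, with Illumina counts thinned to the Nanopore total, and among the 5 members that overlap no other gene. A pseudocount of 5 CPM shrinks ratios by construction, and the minimum of 20 CPM left 6 members. None was called higher by Nanopore under any setting run. Ratios that changed sign did so under length scaling: with union exonic length PLAT was at 0.51, SERPINE2 at 1.12 and SERPINH1 at 0.07, with mean transcript length SERPINE2 was at 0.01, and with MANE length PLAU was at 0.31, PLAT at 0.03 and SERPINB1 at 0.07. The cause was not tested. SERPINE2, never past 4-fold, no longer had an adjusted p under the threshold under TMM (−0.49) and median-ratio scaling (−0.45), among others. TMM and median-ratio scaling moved the median of all genes by 0.084 and 0.122 on the log2 scale, and TPM by union, mean transcript and MANE length by 0.702, 0.298 and 0.699. Of all tested genes, 908 of 12414 were called higher by Illumina. With those 3 lengths the calls were 580 of 11976, 471 of 11919 and 381 of 11691. They were 449 of 12414 with a pseudocount of 5 CPM and 480 of 7582 with the minimum of 20 CPM. With thinned Illumina counts they were 752 of 12063, and without overlap 250 of 2810. Calls higher by Nanopore were 1597 of 12414, against 749 of 7582 with that minimum, 1225 of 12063 with thinned counts and 86 of 2810 without overlap. No paired analysis was possible because each platform has 1 library. Nanopore levels under 3 counts (7.44 CPM), those of ST14 and SERPINB2, are known only within wide counting intervals.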

Other observations

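Outside the 9 genes, 2 genes of the lists were called higher by Nanopore at 4-fold, a direction that held 12.9% of all tested genes. SERPINA3 (alpha-1-antichymotrypsin, an acute phase inhibitor; chromosome 14, 94612384 to 94624055) had 39 Nanopore counts (96.7 CPM, 70.8 to 132) and 4075 Illumina counts (21.3 CPM), log2 ratio 2.13 (exact binomial test, Benjamini-Hochberg adjusted p = 6.06e-13). A protein-coding gene on the same strand, ENSG00000273259 (94592058 to 94624646), contains it and had 41 and 3946 counts, so the reads of the pair cannot be told apart. KLKB1 (plasma kallikrein) had 4 Nanopore counts (9.92 CPM, 3.86 to 25.5) and 86 Illumina counts (0.449 CPM), log2 ratio 2.91 (exact binomial adjusted p = 0.00033). A protein-coding gene on the same strand, ENSG00000290316 (chromosome 4, 186208979 to 186258469), covers nearly all of KLKB1 (186226438 to 186258471) and was not analysed here, so these 4 counts cannot be assigned to one of the pair.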
